A study of Mus musculus with 48 samples.

Results

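The 9 genes described here encode integrin chains and adhesion molecules of T cells: the integrin chains αE (Itgae), α4 (Itga4), α6 (Itga6), αL (Itgal), β1 (Itgb1), β2 (Itgb2) and β7 (Itgb7), the integrin ligand Icam1, and the hyaluronan receptor Cd44. They were taken by gene symbol from tables of 53345 genes, and all 9 passed the filter on low values in every fit. Female C57BL/6 mice aged 8 to 12 weeks received 2 doses of 500 µg of an antibody, either the isotype control LTF-2 or M5/114, which blocks MHC II, and then, under the skin, PBS or 25 µg of Fc-fused human IL-2 as 1 dose. The IL-2 was wild type (WT IL-2) or one of the muteins H16R and 3x, the latter with more substitutions than the former. On day 4, splenic CD4+ T cells were separated by CD25: Tregs were the fraction bound in the CD25 selection and Tcons the fraction that flowed through it, so the amount of CD25 on a cell, and not Foxp3, decided its fraction. RNA-seq of each combination of antibody and injection gave 8 Treg groups of 4 mice (32 libraries) and 8 Tcon groups of 2 of the same mice (16 libraries). Within the isotype WT IL-2 Tregs, 1 mouse number appears on 2 libraries (replicates 3a and 3b below). Each was taken as a mouse of its own, which the labels do not settle.

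Integrins are pairs of one α and one β chain that tie cells to other cells or to matrix. αE pairs with β7 and binds E-cadherin on epithelium; α4 pairs with β7, binding MAdCAM-1 of gut vessels, or with β1, binding VCAM-1 and fibronectin. α6 with β1 binds laminin. αL and β2 together form LFA-1, the leukocyte integrin that holds T cells to ICAM-1 on antigen-presenting cells and vessel walls. CD44 binds hyaluronan and is high on T cells that have met antigen. IL-2 maintains Tregs through its receptor and STAT5, and αE (CD103) is known as a marker of effector and tissue-seeking Tregs.

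Library totals were 18279780 to 51238377 counts in Tregs and 31311437 to 51953840 counts in Tcons. Foxp3, the transcription factor that defines Tregs, was at 687 to 1249 CPM (counts divided by the scaled size of the library) in Tregs and 46.8 to 183 CPM in Tcons. Some libraries stood apart. In Tregs, isotype PBS replicate 1 had a summed level of 6 B cell markers of 673 CPM, against 124 to 155 CPM in the other 3 libraries of its group, and MHC II blockade WT IL-2 replicate 1 had 619.6 CPM of B cell markers and 453 CPM of 6 monocyte and macrophage markers, with no marker of either list at 0. Among Tcons, isotype WT IL-2 replicate 2 had 183 CPM of Foxp3 and 1419 CPM of 5 Treg markers, against 98.2 and 575 CPM in its partner. Both Tcon libraries of the blockade WT IL-2 group had 269.7 to 436 CPM of monocyte and macrophage markers. Where leaving out one of these libraries changed a call, that is stated beside the value. In bulk RNA, fewer cells of one type and less RNA per cell cannot be told apart.

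Per transcript length (FPKM, the length-scaled level that the authors computed), Itgb7 was the most abundant of the 9 in both cell types, with a median of 379.8 FPKM over the 32 Treg libraries and 245 FPKM over the 16 Tcon libraries. Both LFA-1 chains followed in Tregs, with medians of 173 FPKM each, and then Itgb1 at 128, Itga4 at 73.6, Cd44 at 47.3, Itgae at 42.0, Icam1 at 36.9 and Itga6 at 34.9 FPKM. The order in Tcons was the same down to Cd44, and Itgae was last there, at 5.71 FPKM. The β7 and β1 chains were thus more abundant in Tregs, per length, than any of their α partners among the 9. Over the 8 Treg groups, the highest group mean in CPM exceeded the lowest 2.46 times for Itgae, 2.27 times for Itgb1 and 1.93 times for Itgb7, and 1.23 times for Itgb2. When the 8 groups were ordered by mean, most neighbours overlapped in their 4 libraries: of 7 neighbouring pairs, 2 did not overlap for Itgae and for Itgb7, 1 for Itgb1, Itga6 and Icam1, and 0 for Itga4, Itgal, Itgb2 and Cd44. The order itself was not tested.

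**Figure D1:**
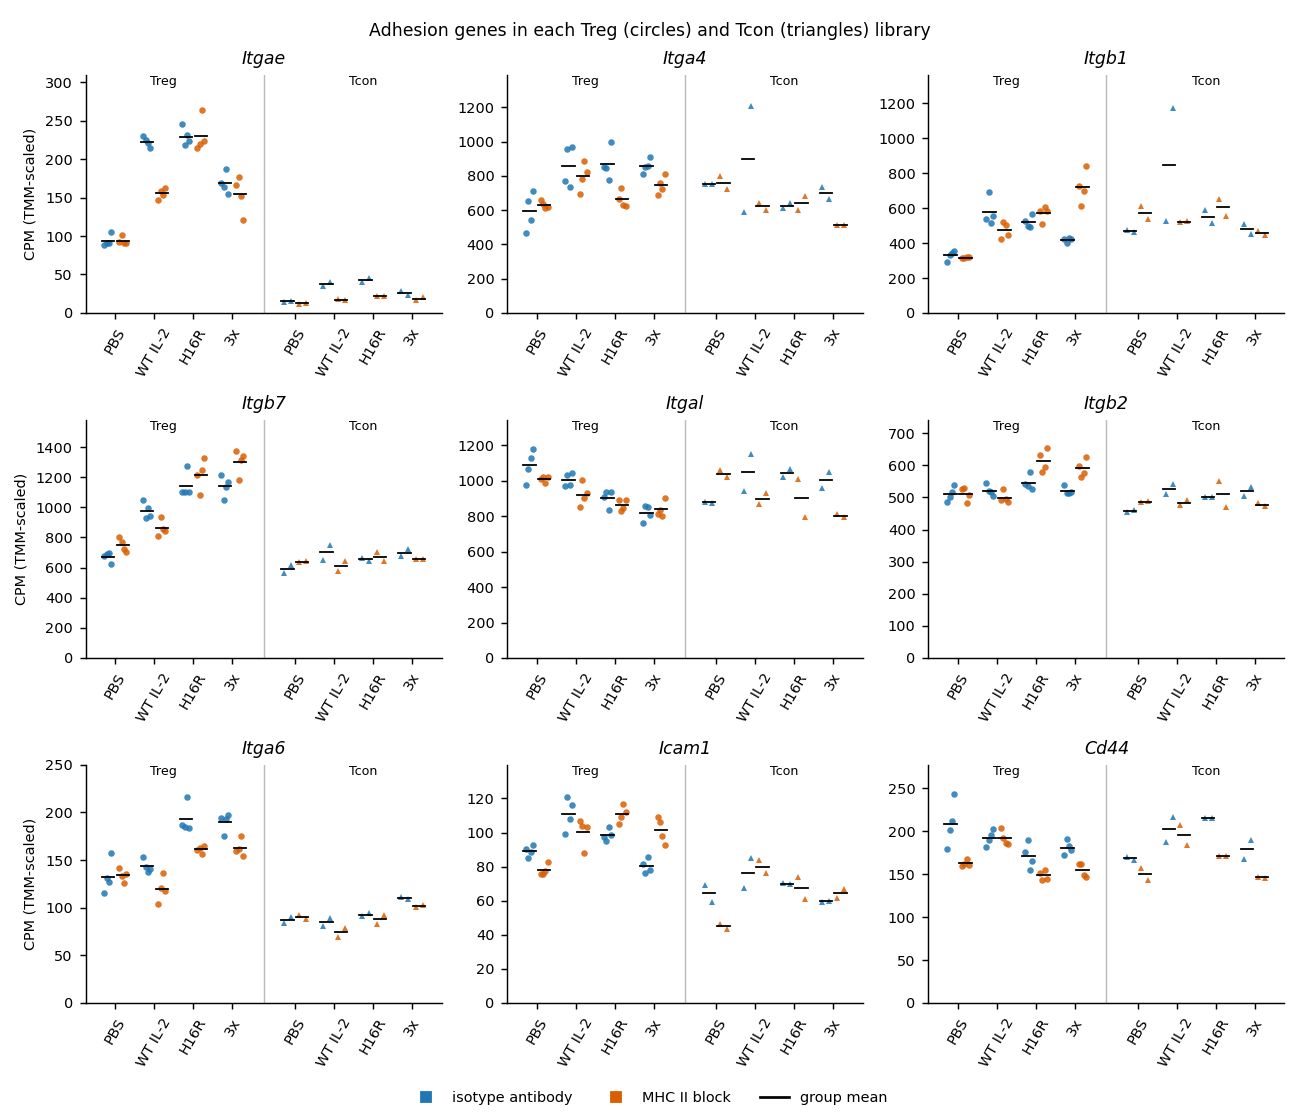
Level of each of the 9 genes in CPM (vertical axes, linear from 0) in every library, by group (horizontal axis), with the group mean as a bar; Treg groups have 4 libraries and Tcon groups 2. Itgae lies at 87.7 to 264 CPM in Tregs and 11.6 to 45.2 CPM in Tcons, and Itgb1 reaches 612 to 844 CPM in Tregs of the MHC II blockade 3x group.

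The first question was how each IL-2 molecule moved these genes in Tregs against PBS. Under isotype, Itgae, Itga4, Itgb1 and Itgb7 rose with all 3 molecules and Itgal fell with all 3; Itga6 rose with both muteins. Called (adjusted p under 0.1 in the edgeR fit) were 6 of the 9 with WT IL-2 (5 higher, 1 lower), where 52.2% of all 12392 genes tested were called, 9 with H16R (7 higher, 2 lower, 64.2% of all genes) and 8 with 3x (5 higher, 3 lower, 63.6%). Under MHC II blockade 7 were called with WT IL-2 (6 higher, 1 lower, 35.6% of all genes), 8 with H16R (6 higher, 2 lower, 66.5%) and 8 with 3x (7 higher, 1 lower, 73%). With shares this large over all genes, the number of members called says little by itself, and the sizes below carry the description. The 3 molecules share the 4 PBS libraries of their antibody arm, so their values stand side by side and are not independent of one another. Besides leaving out libraries, other settings of the fit were tried (another scaling, tool or filter, FPKM in place of counts, counts thinned to the smallest library total, or a block for the replicate number), and one that ended or added a call is named beside it.

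Itgae (chr11:73090583-73147446, + strand, GRCm38) showed the widest range. In isotype Tregs it was at 87.7, 91.1, 90.5 and 105 CPM with PBS, 229.6, 225, 221 and 214 CPM with WT IL-2, 245, 218, 231 and 223 CPM with H16R and 169, 164, 187 and 155 CPM with 3x. Every library of an IL-2 group lay above every PBS library. The rise was 2.38-fold with WT IL-2 (log2 fold change 1.25 ± 0.08, SE; adjusted p = 3.37e-12), 2.46-fold with H16R (log2 1.30 ± 0.08; adjusted p = 4.63e-13) and 1.82-fold with 3x (log2 0.87 ± 0.08; adjusted p = 1.17e-09). Under MHC II blockade it was at 91.8, 101, 90.8 and 90.4 CPM with PBS, 147, 159, 153 and 163 CPM with WT IL-2, 214, 219, 264 and 224 CPM with H16R and 166, 177, 152 and 121 CPM with 3x. The groups again did not overlap with PBS, and the rises were 1.68-fold (log2 0.75 ± 0.08), 2.46-fold (log2 1.30 ± 0.08) and 1.63-fold (log2 0.71 ± 0.08), with adjusted p of at most 1.64e-07. A kinase gene, Haspin, lies in an intron of Itgae on the opposite strand and shares 0 exonic bases with it.

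Itgb7 (chr15:102215995-102231944, - strand), the partner chain of αE and α4, rose less with WT IL-2 than with the muteins. Isotype Tregs had 679, 693, 696 and 623 CPM with PBS, 1052, 927, 995 and 941 CPM with WT IL-2, 1099.6, 1103, 1274 and 1103 CPM with H16R and 1216, 1051, 1137 and 1168 CPM with 3x. The log2 fold changes were 0.54 ± 0.06 (adjusted p = 1.02e-07), 0.77 ± 0.06 (adjusted p = 5.62e-11) and 0.77 ± 0.06 (adjusted p = 7.6e-11), and no IL-2 library overlapped with PBS. Under blockade the ranges were 707 to 801 CPM with PBS, 809.7 to 937 CPM with WT IL-2, 1082 to 1331 CPM with H16R and 1179 to 1373 CPM with 3x. The log2 fold changes there were 0.22 ± 0.06 (adjusted p = 0.0109), 0.70 ± 0.06 and 0.78 ± 0.06.

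Itga4 (chr2:79255426-79333123, + strand), the α chain of both the gut-homing α4β7 and the VCAM-1 receptor α4β1, rose by nearly the same amount with each molecule under isotype. Its levels there were 469, 653, 541 and 710.1 CPM with PBS, 767, 954, 737 and 970.5 CPM with WT IL-2, 850.2, 846, 775 and 995 CPM with H16R and 809, 854, 856 and 908 CPM with 3x. The log2 fold changes were 0.53 ± 0.10, 0.55 ± 0.10 and 0.54 ± 0.10 (adjusted p = 8.94e-05, 2.95e-05 and 3.87e-05), without overlap with PBS, although the libraries within a group were widely spread. Under blockade Itga4 was at 661, 638, 615 and 616 CPM with PBS, 696, 782, 889 and 824 CPM with WT IL-2, 664, 730.5, 632 and 622 CPM with H16R and 691, 759.6, 722 and 808 CPM with 3x. WT IL-2 raised it by 0.35 ± 0.10 on the log2 scale (adjusted p = 0.00897) and 3x by 0.23 ± 0.10 (adjusted p = 0.0461; 0.107 without blockade 3x replicate 4 and 0.102 to 0.105 in limma on FPKM), while H16R did not pass the test (0.06 ± 0.10, 95% interval -0.14 to 0.27, adjusted p = 0.593). The gene Cerkl on the opposite strand overlaps 1124 exonic bases of Itga4 and was at 1.31 to 2.20 CPM in Tregs.

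Itgb1 (chr8:128685654-128733200, + strand), the β chain shared by α4, α6 and other α chains, rose with each molecule in both arms, least with 3x under isotype and most with 3x under blockade. Isotype libraries held 291, 332, 342 and 352 CPM with PBS, 539.8, 693, 516 and 556 CPM with WT IL-2, 528, 498, 490.5 and 569 CPM with H16R and 424, 400.4, 432 and 426 CPM with 3x. The rise was 1.75-fold with WT IL-2 (log2 0.81 ± 0.08, adjusted p = 1.03e-08), with H16R 1.59-fold (log2 0.67 ± 0.08, adjusted p = 1.02e-07) and with 3x 1.29-fold (log2 0.36 ± 0.08, adjusted p = 0.00045). H16R against WT IL-2 did not pass the test in this arm (log2 -0.14 ± 0.08, 95% interval -0.31 to 0.03, adjusted p = 0.283), and the libraries of the pair overlapped. With blockade the libraries held 312, 316, 321 and 319 CPM with PBS, 425, 519.9, 505 and 445 CPM with WT IL-2, 584, 511, 604 and 586 CPM with H16R and 725, 612, 699 and 844 CPM with 3x. Here 3x gave the largest of the 3 changes, 2.26-fold (log2 1.17 ± 0.08, adjusted p = 1.4e-12), against 1.8-fold with H16R (log2 0.85 ± 0.08) and 1.51-fold with WT IL-2 (log2 0.60 ± 0.08). Every IL-2 library lay above all PBS libraries of its arm.

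Itga6 (chr2:71745616-71858416, + strand), the laminin-binding α chain, followed the muteins. In isotype Tregs it was at 115, 131, 127 and 157 CPM with PBS, 153, 143, 137 and 141 CPM with WT IL-2, 187, 185, 216 and 184 CPM with H16R and 194, 175, 193 and 197 CPM with 3x. H16R and 3x each stood above PBS without overlap (log2 0.55 ± 0.07 and 0.53 ± 0.07, adjusted p = 1.94e-07 and 3.63e-07). WT IL-2 overlapped with PBS and did not pass the test (log2 0.12 ± 0.07, adjusted p = 0.182). Without isotype PBS replicate 4 its value was 0.21 and called (adjusted p = 0.0114). Under blockade it was at 142, 133, 126 and 135 CPM with PBS, 104, 121, 136 and 117 CPM with WT IL-2, 161, 163, 156 and 165 CPM with H16R and 159.6, 162, 175 and 154 CPM with 3x. The mutein rises were smaller there (log2 0.26 ± 0.07 and 0.27 ± 0.07, adjusted p = 0.0021 and 0.0015), and WT IL-2 gave -0.14 ± 0.07 (adjusted p = 0.132; 0.0979 without blockade PBS replicate 3 and 0.0336 without blockade WT IL-2 replicate 3). That value was also called, at -0.19, when libraries were scaled by total counts alone or FPKM was tested in limma (adjusted p = 0.0436 to 0.0497).

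The chains of LFA-1 did not move together. Itgal (chr7:127296260-127335138, + strand) was at 975 to 1180.4 CPM in isotype Tregs with PBS, 973 to 1043 CPM with WT IL-2, 836 to 936 CPM with H16R and 762 to 858 CPM with 3x. It fell with H16R (log2 -0.26 ± 0.05, adjusted p = 9.54e-05) and 3x (-0.39 ± 0.05, adjusted p = 2.48e-07), whose libraries all lay below PBS. The call with WT IL-2 (-0.11 ± 0.05, adjusted p = 0.0791) was lost in 5 of 8 fits that each left out 1 library (PBS replicate 3 or 4 or WT IL-2 replicate 1, 2 or 3a). The value was -0.10 to -0.06 in those fits (adjusted p = 0.141 to 0.344). The call was also lost under 5 other settings (adjusted p = 0.11 to 0.226: no CPM filter, all gene types, only the compared groups in the fit, thinned libraries, and a replicate block). Under blockade it was at 989 to 1023 CPM with PBS, 853 to 1003 CPM with WT IL-2, 829 to 894 CPM with H16R and 801 to 904 CPM with 3x. The falls with H16R (-0.23 ± 0.05, adjusted p = 0.000418) and 3x (-0.28 ± 0.05, adjusted p = 2.49e-05) were again free of overlap, and that with WT IL-2 (-0.11 ± 0.05, adjusted p = 0.0957) was lost in 7 of 8 such fits (adjusted p = 0.1 to 0.252; among these fits it was kept only without WT IL-2 replicate 2) and with all gene types (adjusted p = 0.102), and was -0.17 in limma on FPKM, still called.

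Itgb2 (chr10:77530252-77565708, + strand), the β chain of LFA-1 and of the myeloid integrins, was the steadiest of the 9. Isotype groups spanned 485 to 538 CPM with PBS, 504 to 545 CPM with WT IL-2, 525 to 580.4 CPM with H16R and 513 to 539 CPM with 3x. Only H16R was called in this arm (log2 0.10 ± 0.04, adjusted p = 0.0328), a call lost without isotype PBS replicate 1 (adjusted p = 0.102) or H16R replicate 3 (0.152). With total-count scaling or limma on FPKM the value was 0.04 and not called (adjusted p = 0.434 to 0.466), nor was it with only the compared groups in the fit (0.123). The intervals with WT IL-2 (-0.05 to 0.11) and 3x (-0.04 to 0.12) stayed within a log2 change of 0.12. Under blockade Itgb2 rose with both muteins, from 483 to 528 CPM with PBS to 578 to 653 CPM with H16R (log2 0.26 ± 0.04, adjusted p = 3.94e-06) and 562 to 627 CPM with 3x (0.20 ± 0.04, adjusted p = 0.000116), and WT IL-2 gave 486 to 525 CPM (-0.02 ± 0.04, adjusted p = 0.788).

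Icam1 (chr9:21015985-21028817, + strand) encodes the ligand of LFA-1, which T cells also carry. Isotype Tregs had 90.3, 85.3, 88.8 and 92.8 CPM with PBS, 99.1, 121, 108 and 116 CPM with WT IL-2, 97.4, 94.8, 103 and 98.4 CPM with H16R and 81.3, 76.5, 85.8 and 78.2 CPM with 3x. It rose with WT IL-2 (log2 0.31 ± 0.06, adjusted p = 0.000237), and less with H16R (0.15 ± 0.06, adjusted p = 0.0499), and was called lower with 3x (-0.14 ± 0.06, adjusted p = 0.0612). The H16R call was lost without isotype PBS replicate 2 or H16R replicate 3 (adjusted p = 0.123 to 0.139) and with total-count scaling or limma on FPKM, where the value was 0.08 (adjusted p = 0.259 to 0.275). The 3x call was lost without isotype PBS replicate 1 or 4 or 3x replicate 2 or 4 (adjusted p = 0.124 to 0.152), without the CPM filter and in thinned libraries (adjusted p = 0.132 to 0.17). Under blockade the levels were 75.4, 75.5, 77.2 and 83.0 CPM with PBS, 107, 104, 88.0 and 103 CPM with WT IL-2, 105, 109, 117 and 112 CPM with H16R and 109, 106, 98.0 and 92.9 CPM with 3x. All 3 molecules now stood above PBS without overlap, with log2 fold changes of 0.39 ± 0.06, 0.50 ± 0.06 and 0.37 ± 0.06 (adjusted p = 4.86e-05, 1.17e-07 and 7.68e-06). An antisense gene, Gm47079, overlaps 511 exonic bases of Icam1 and was at 0.14 to 0.74 CPM in Tregs.

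Cd44 (chr2:102811141-102901665, - strand) was lower with the muteins than with PBS under isotype. Its libraries held 179.9, 201, 212 and 243 CPM with PBS, 182, 189.6, 196 and 203 CPM with WT IL-2, 176, 189.8, 155 and 165 CPM with H16R and 172, 191, 183 and 178 CPM with 3x. It fell with H16R (log2 -0.28 ± 0.06, adjusted p = 0.000402) and with 3x (-0.20 ± 0.06, adjusted p = 0.00889), although each group overlapped with PBS and the 3x value was -0.12 without isotype PBS replicate 4, still called. WT IL-2 gave -0.12 ± 0.06 (adjusted p = 0.13; 0.0206 without isotype PBS replicate 1, the library with B cell markers, 0.0902 without WT IL-2 replicate 3b, and 0.0602 with total-count scaling). Under blockade the direction with WT IL-2 was the opposite, from 160.1, 162, 168 and 160.3 CPM with PBS to 204, 192, 186 and 185 CPM, a rise of 0.26 ± 0.06 on the log2 scale (adjusted p = 0.00298) without overlap. Blockade minus isotype was -0.36 ± 0.06 with PBS (adjusted p = 0.000445), while with WT IL-2 the arms overlapped and differed by 0.01 ± 0.06 (95% interval -0.11 to 0.14, adjusted p = 0.904). Under blockade, H16R (143 to 155 CPM) was called lower (-0.13 ± 0.06, adjusted p = 0.0697), which 6 of 8 fits without 1 library did not keep (adjusted p = 0.109 to 0.196, without any of the PBS replicates or H16R replicate 2 or 4), nor did fits without the CPM filter, with all gene types or on thinned libraries (adjusted p = 0.167 to 0.283). 3x (147 to 162 CPM) did not pass the test (-0.08 ± 0.06, adjusted p = 0.254; 0.074 to 0.0764 in limma on FPKM).

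Markers of the cells moved with the injections as well. The 5 Treg markers summed to 2628 to 3259 CPM with PBS and 3921 to 4453 CPM with the 3 IL-2 molecules under isotype, and to 2775 to 2986 CPM with PBS, 2409 to 3386 CPM with WT IL-2, 3734 to 4114 CPM with H16R and 3985 to 4547 CPM with 3x under blockade. The 4 plasma cell markers, none at 0, summed to 1637 to 1945 CPM with PBS, 736 to 882 CPM with WT IL-2, 281 to 532 CPM with H16R and 175 to 263 CPM with 3x under isotype, and to 686 to 2029, 1648 to 3237, 657 to 1330.4 and 696 to 1498 CPM in the same order under blockade. The 4 T cell markers summed to 1339.7 to 1582 CPM with isotype PBS and 1866 to 2216 CPM with the IL-2 molecules, and under blockade to 1552 to 1670.3, 1446 to 1897, 2111 to 2379.8 and 1884 to 2069.6 CPM.

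Among the other marker lists, those of B, NK and dendritic cells were lower with each IL-2 molecule than with PBS under isotype, and those of monocytes and macrophages and of neutrophils were lower with both muteins and overlapped with PBS with WT IL-2. The 6 B cell markers summed to 124 to 673 CPM with PBS, 56.4 to 98.6 CPM with WT IL-2, 34.0 to 43.9 CPM with H16R and 31.2 to 42.1 CPM with 3x. The 4 NK cell markers were at 28.2 to 45.3, 14.6 to 21.5, 10.0 to 14.0 and 11.8 to 20.2 CPM, and the 5 dendritic cell markers at 15.0 to 28.1, 7.33 to 10.4, 3.79 to 5.49 and 3.88 to 6.33 CPM. The monocyte and macrophage markers were at 12.9 to 80.8, 7.97 to 13.0, 5.32 to 7.12 and 5.59 to 7.02 CPM, and the 4 neutrophil markers at 3.00 to 27.5, 1.17 to 4.68, 0.0653 to 1.16 and 0.358 to 1.01 CPM. Under blockade these 5 lists overlapped with PBS in each IL-2 group, except the NK cell markers with WT IL-2 (37.0 to 52.7 CPM, against 26.4 to 36.6 CPM with PBS). No marker of these 5 lists was at 0 throughout a group.

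Other lists did not fall. Under isotype the 2 CD8 T cell markers (6.45 to 15.9 CPM with PBS, 8.89 to 13.1 CPM with the IL-2 molecules) and the 4 erythroid markers (0.565 to 2.90 CPM with PBS and 0.665 to 6.48 CPM with the IL-2 molecules, the upper end with WT IL-2) overlapped with PBS in each group. The 5 stroma and endothelium markers were higher with WT IL-2 (2.65 to 3.61 CPM) and H16R (2.63 to 4.07 CPM) than with PBS (1.87 to 2.40 CPM), and were at 2.40 to 2.74 CPM with 3x. Under blockade the CD8 T cell markers were higher with each molecule (10.5 to 45.1, 10.3 to 15.6 and 13.6 to 36.7 CPM, against 7.29 to 8.97 CPM with PBS), the stroma and endothelium markers with 3x (3.76 to 4.03 CPM, against 2.15 to 3.42 CPM), and the erythroid markers overlapped with PBS. The 4 platelet markers summed to at most 0.643 CPM in Tregs, with 1 or 2 of them at 0 throughout some groups. The kit used is designed to deplete cells other than CD4+ T cells ahead of the CD25 selection, and the study's methods describe a purity check in which most of the purified samples were largely Foxp3+ by staining. The part of any of these cells in the changes of the 9 genes was not tested.

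**Figure D2:**
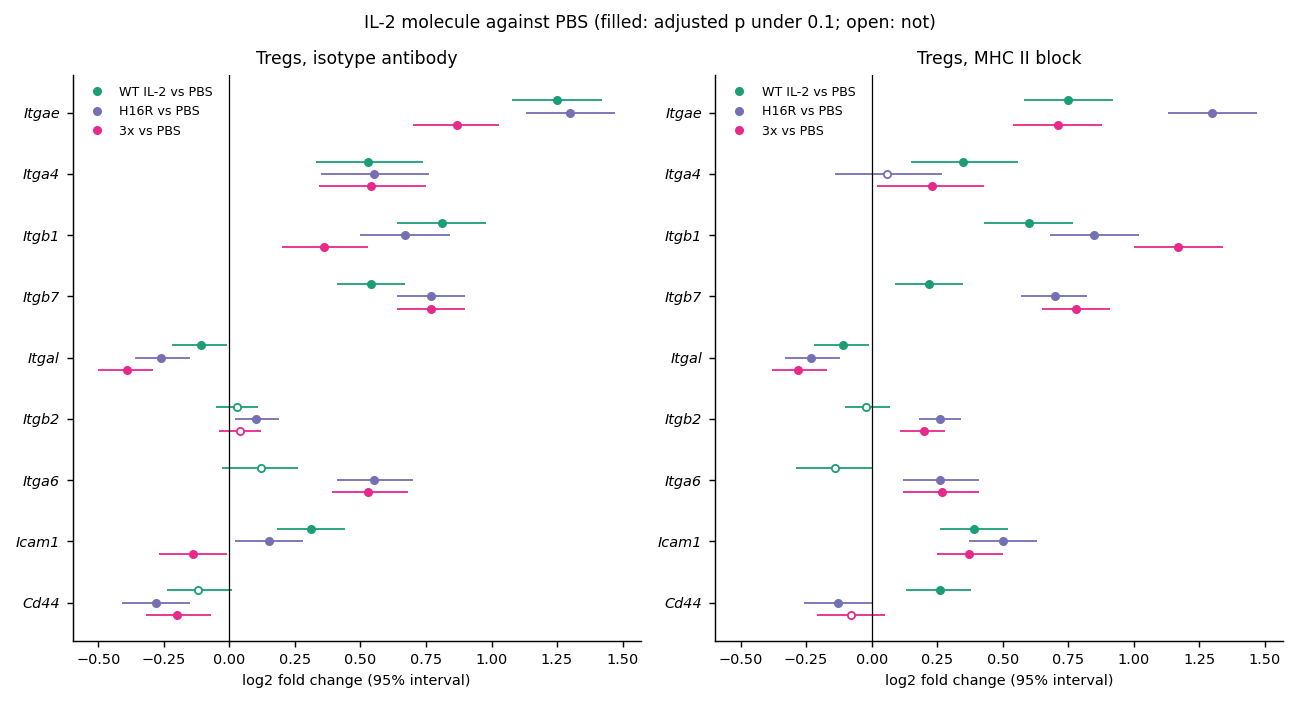
Log2 fold change against PBS (axis) with its 95% interval for each of the 9 genes in Tregs, for WT IL-2, H16R and 3x under isotype and under MHC II blockade; filled points passed adjusted p under 0.1. Itgae, Itgb1 and Itgb7 lie above 0 in all 6 comparisons, and Itgb1 under blockade is highest with 3x, at 1.17.

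The promoters of Icam1 and Itgb1 are shown because the genes moved differently between the antibody arms with 3x, and because STAT5 acts below the IL-2 receptor. The RefSeq table (GRCm38.p6) held promoters of 5 of the 9 genes; those printed cover the 250 bases before the RefSeq start, 5′ to 3′ on the + strand, for Icam1 (chr9:21015690-21015939) and Itgb1 (chr8:128685404-128685653), and capitals mark the STAT5 motif TTCNNNGAA.
Icam1: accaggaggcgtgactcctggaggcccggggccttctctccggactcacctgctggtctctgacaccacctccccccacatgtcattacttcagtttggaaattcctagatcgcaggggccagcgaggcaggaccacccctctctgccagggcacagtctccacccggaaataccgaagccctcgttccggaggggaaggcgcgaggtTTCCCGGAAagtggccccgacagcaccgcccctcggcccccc
Itgb1: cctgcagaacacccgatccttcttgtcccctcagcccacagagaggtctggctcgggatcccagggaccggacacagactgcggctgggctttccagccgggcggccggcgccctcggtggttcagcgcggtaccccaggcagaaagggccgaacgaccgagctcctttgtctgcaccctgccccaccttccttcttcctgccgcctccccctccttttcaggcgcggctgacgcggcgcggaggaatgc
The match in Icam1, TTCCCGGAA, lies 42 to 34 bases before the start. Itgb1, Itga4, Itgb7 and Cd44 held no match to this motif in their windows, and none of the 5 held the AP-1 motif TGANTCA. Both strands were searched. Of 32851 promoters of the same length, 7.0% held the STAT5 motif and 6.7% the AP-1 motif. A match describes letters only, and binding was not measured.

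How the 3 molecules differed from one another was tested directly in 6 pairs. H16R and WT IL-2 differed for 5 of the 9 genes under isotype (2 higher and 3 lower with H16R, 18.6% of all genes) and for 8 under blockade (5 higher, 3 lower, 57.5%). Itga6 was higher with H16R by 0.43 ± 0.07 under isotype (adjusted p = 0.000262) and 0.41 ± 0.07 under blockade (adjusted p = 4.55e-05), and Itgb7 by 0.23 ± 0.06 (adjusted p = 0.0158; 0.119 without H16R replicate 3) and 0.48 ± 0.06 (adjusted p = 1.17e-06). Itgae did not pass the test under isotype (log2 0.05 ± 0.08, 95% interval -0.12 to 0.21) and was higher with H16R under blockade (0.54 ± 0.08, adjusted p = 6.43e-06). Itga4 gave an interval of -0.18 to 0.22 under isotype and was lower with H16R under blockade (-0.29 ± 0.10, adjusted p = 0.0182), as was Cd44 (-0.39 ± 0.06, adjusted p = 1.85e-05). Itgb1 and Itgb2 were higher with H16R under blockade, by 0.25 ± 0.08 (adjusted p = 0.0145) and 0.28 ± 0.04 (adjusted p = 5.65e-06). The other calls were weak: under isotype, Itgal (-0.15, adjusted p = 0.0568) was lost without WT IL-2 replicate 2 or 3b or H16R replicate 3 (adjusted p = 0.153 to 0.255), and Icam1 (-0.16, 0.0811) and Cd44 (-0.16, 0.085) were each lost in 6 of 8 fits without 1 library (adjusted p = 0.118 to 0.289 and 0.108 to 0.34). Itgal was also lost without the CPM filter (adjusted p = 0.108), and Icam1 and Cd44 without that filter, with all gene types and with a replicate block, Icam1 in thinned libraries too (adjusted p = 0.109 to 0.154 and 0.112 to 0.123). Of the fits for Icam1 and Cd44 that left out 1 library, the one without WT IL-2 replicate 1 kept both calls, that without WT IL-2 replicate 3a kept Icam1, and that without H16R replicate 2 kept Cd44. Under blockade, Itgal (-0.11, 0.07) was lost without WT IL-2 replicate 2 or 4 or H16R replicate 2 or 3 (adjusted p = 0.141 to 0.258) and under 5 other settings, where it was -0.10 to -0.05 (adjusted p = 0.107 to 0.436: DESeq2 size factors, no CPM filter, all gene types, only the compared groups, thinned libraries). Icam1 (0.12, 0.123) was called without WT IL-2 replicate 1 or H16R replicate 1 (adjusted p = 0.0548 to 0.0875) and under 5 other settings (adjusted p = 0.0229 to 0.0931: DESeq2 and its size factors, no CPM filter, all gene types, thinned libraries).

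3x and WT IL-2 differed for 6 genes under isotype (2 higher and 4 lower with 3x, 34.7% of all genes) and 6 under blockade (4 higher, 2 lower, 68.7%). Under isotype Itgae (-0.39 ± 0.08, adjusted p = 0.000754), Itgb1 (-0.44 ± 0.08, 0.000235), Icam1 (-0.45 ± 0.06, 7.49e-06) and Itgal (-0.28 ± 0.05, 0.00017) were lower with 3x, each without overlap between the groups, and Itga6 (0.42 ± 0.07, 8.05e-05) and Itgb7 (0.24 ± 0.06, 0.00611) were higher. Under blockade Itgb1 was instead higher with 3x (0.57 ± 0.08, adjusted p = 1.28e-06), and Itgae (-0.04 ± 0.08, 95% interval -0.21 to 0.12) and Icam1 (-0.01 ± 0.06, 95% interval -0.14 to 0.12) did not pass the test. The call of Itgal, lower with 3x there (-0.17 ± 0.05, adjusted p = 0.00687), was lost without the CPM filter and with all gene types (adjusted p = 0.144 to 0.178). The muteins differed from one another for 3 genes under isotype (all lower with 3x, 11.5% of all genes): Itgae (-0.44 ± 0.08, adjusted p = 0.00156), Itgb1 (-0.30 ± 0.08, 0.0224) and Icam1 (-0.29 ± 0.06, 0.0062). Itgal (-0.14, adjusted p = 0.108) was added to these without H16R replicate 3 or 3x replicate 2 or 3 (adjusted p = 0.0478 to 0.0862), in DESeq2 and with a replicate block (adjusted p = 0.0676 to 0.0781). Under blockade they differed for 2 (25.2% of all genes), with Itgae lower with 3x (-0.59 ± 0.08, adjusted p = 2.72e-05) and Itgb1 higher (0.33 ± 0.08, adjusted p = 0.00607). For Itgb7 and Itga6 the intervals of the difference between the muteins were -0.12 to 0.13 and -0.16 to 0.13 under isotype and -0.04 to 0.22 and -0.14 to 0.15 under blockade.

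The effect of MHC II blockade was asked within each injection. With PBS, 2 of the 9 genes were lower with blockade (14.1% of all genes called): Cd44, by -0.36 ± 0.06 on the log2 scale (adjusted p = 0.000445), with every blockade library below every isotype library, and Icam1 (-0.20 ± 0.06, adjusted p = 0.0467; adjusted p = 0.106 to 0.117 without isotype PBS replicate 4 or blockade PBS replicate 1 or 2). Itgae was at the same mean, 93.5 ± 7.60 CPM under isotype and 93.6 ± 5.27 CPM under blockade (SD, n = 4 each; 95% interval of the log2 difference -0.17 to 0.17). Itgal (-0.10, adjusted p = 0.211) was called only without isotype PBS replicate 1 (adjusted p = 0.0694), and Itgb7 (0.16, 0.124) was called higher with total-count scaling and in limma on FPKM (adjusted p = 0.0645 to 0.0681). With WT IL-2, 4 genes were lower with blockade (33.6% of all genes): Itgae (-0.50 ± 0.08, adjusted p = 4.68e-05), Itgb1 (-0.27 ± 0.08, 0.0175), Itga6 (-0.24 ± 0.07, 0.0121) and Itgb7 (-0.17 ± 0.06, 0.0506). The Itgb7 call was lost without isotype WT IL-2 replicate 1 or blockade WT IL-2 replicate 1 or 4 (adjusted p = 0.112 to 0.171). Icam1 (-0.12, 0.146) was called without WT IL-2 replicate 1 of either arm (adjusted p = 0.0462 to 0.0797), without the CPM filter, with all gene types and in thinned libraries (adjusted p = 0.0693 to 0.0977). Itgal (-0.11, 0.121) was called without blockade WT IL-2 replicate 2 (adjusted p = 0.0398) and under 6 other settings (adjusted p = 0.0578 to 0.0975: those 3, DESeq2, its size factors and a replicate block).

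With H16R, 5 genes were called between the antibodies (2 higher and 3 lower with blockade, 30.7% of all genes). Itga4 (-0.40 ± 0.10, adjusted p = 0.00636), Itga6 (-0.27 ± 0.07, 0.00872) and Cd44 (-0.21 ± 0.06, 0.0168) were lower and Itgb2 higher (0.16 ± 0.04, 0.0071). In limma on FPKM, Cd44 was at -0.15 and not called (adjusted p = 0.103 to 0.11). Icam1 was called higher (0.16 ± 0.06, 0.0699), a call lost in 5 of 8 fits without 1 library (adjusted p = 0.125 to 0.2, without isotype H16R replicate 1, 2 or 4 or blockade H16R replicate 3 or 4). With 3x, 7 genes were called (4 higher, 3 lower, 54.1% of all genes), more than with the other injections, as for all genes. Itgb1 differed most, from 420.5 ± 13.9 CPM under isotype to 720.1 ± 95.9 CPM under blockade (SD, n = 4 each; log2 0.75 ± 0.08, adjusted p = 4.89e-08). Icam1 (0.31 ± 0.06, 0.00021) and Itgb2 (0.16 ± 0.04, 0.00237) were also higher with blockade, and for all 3 genes the groups did not overlap. Itga6 (-0.25 ± 0.07, 0.00564) and Cd44 (-0.24 ± 0.06, 0.0023) were lower. The calls of Itgb7 (0.16, 0.0329) and Itga4 (-0.22, 0.0654) were each lost without some single libraries: Itgb7 without isotype 3x replicate 2 or blockade 3x replicate 1 or 4 (adjusted p = 0.102 to 0.132), and Itga4 without isotype 3x replicate 2, 3 or 4 or blockade 3x replicate 1 or 3 (adjusted p = 0.101 to 0.166). Itga4 was also lost under 5 other settings (adjusted p = 0.138 to 0.158: total-count scaling, no CPM filter, all gene types and both limma fits on FPKM). Itgae did not pass the test (log2 -0.15 ± 0.08, adjusted p = 0.121; adjusted p = 0.0225 to 0.095 without isotype 3x replicate 4 or blockade 3x replicate 1 or 2).

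Markers of other cells differed between the antibodies as well, and did so in the IL-2 groups. With 3x the blockade libraries lay above the isotype libraries, without overlap, for the markers of B cells (59.3 to 129 against 31.2 to 42.1 CPM), plasma cells (696 to 1498 against 175 to 263 CPM) and NK cells (23.6 to 29.3 against 11.8 to 20.2 CPM). The same held with 3x for the markers of dendritic cells (9.63 to 14.4 against 3.88 to 6.33 CPM), monocytes and macrophages (9.71 to 16.5 against 5.59 to 7.02 CPM) and CD8 T cells (13.6 to 36.7 against 9.68 to 11.4 CPM), and for the erythroid and the stroma and endothelium markers, which summed to at most 5.69 CPM there. With H16R the B, plasma, NK and dendritic cell, monocyte and macrophage, and neutrophil sums were higher under blockade without overlap, and with WT IL-2 the plasma, NK and dendritic cell and monocyte and macrophage sums. The Treg marker sum was lower under blockade without overlap with WT IL-2 and H16R, and so was the T cell sum with WT IL-2. With PBS the antibody groups overlapped for each of these lists. The part of other cells in the differences of the 9 genes between the antibodies was not tested.

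Whether blockade altered the response to a molecule, beyond its difference in PBS mice, was tested as an interaction, the log2 fold change against PBS under blockade minus that under isotype. With WT IL-2 it was called for 4 of the 9 genes (1 higher, 3 lower, 19.7% of all genes): the Itgae response was smaller under blockade (-0.50 ± 0.12, adjusted p = 0.00349), as was that of Itgb7 (-0.32 ± 0.09, 0.0135), and Cd44 went from -0.12, which was not called, to 0.26 (0.37 ± 0.09, 0.00432). That Cd44 value was close in size to the difference between the arms with PBS (-0.36), with the WT IL-2 arms at 0.01 from each other. With H16R it was also called for 4 (2 higher, 2 lower, 19.1% of all genes), led by Itga4 (-0.49 ± 0.14, adjusted p = 0.0243) and Icam1 (0.36 ± 0.09, 0.011), while Itgae gave 0.00 ± 0.12 (95% interval -0.24 to 0.23). With 3x it was called for 5 (3 higher, 2 lower, 39% of all genes): the Itgb1 response rose from 0.36 to 1.17 (0.81 ± 0.12, adjusted p = 1.61e-05), and that of Icam1 went from -0.14 to 0.37 (0.51 ± 0.09, 0.000131). For Icam1 the blockade arm was lower with PBS (-0.20) and higher with H16R (0.16) and 3x (0.31), so both differences enter these values.

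The remaining interactions had larger adjusted p-values and depended on single libraries. Itga6 was lower with each molecule (-0.26, -0.29 and -0.27; adjusted p = 0.082, 0.0604 and 0.0451). With WT IL-2 this was lost in 9 of 16 fits without 1 library (adjusted p = 0.11 to 0.179): isotype PBS replicate 1, 2 or 3 or WT IL-2 replicate 1, or blockade PBS replicate 1, 2 or 4 or WT IL-2 replicate 1 or 4. With H16R it was lost without isotype PBS replicate 1 or 3, blockade PBS replicate 1, or H16R replicate 3 of either arm (adjusted p = 0.117 to 0.142), and with 3x without PBS replicate 1 of either arm (adjusted p = 0.109 to 0.117). Itga4 with 3x (-0.32, 0.0859) was lost in 9 of 16 fits (adjusted p = 0.114 to 0.211): isotype PBS replicate 1 or 3 or 3x replicate 2, 3 or 4, or blockade PBS replicate 1 or 2 or 3x replicate 1 or 3. Itgb2 with H16R (0.16, 0.0733) was lost in 8 of 16 (adjusted p = 0.101 to 0.156): isotype PBS replicate 3 or 4 or H16R replicate 1, 2 or 4, or blockade PBS replicate 3 or H16R replicate 1 or 4. Itgb2 with 3x (0.16, 0.0403) was lost without blockade 3x replicate 1 or 4 (adjusted p = 0.106 to 0.162), and Itgae with 3x (-0.16, 0.317) was called without blockade 3x replicate 2 (adjusted p = 0.0986). Other settings ended calls too. Itga6 was lost with WT IL-2 under only the compared groups and under a replicate block (adjusted p = 0.10 to 0.159), and with H16R and 3x without the CPM filter and with all gene types (adjusted p = 0.103 to 0.123 and 0.105 to 0.142). Itgb2 with H16R was lost without that filter, with only the compared groups and in thinned libraries (adjusted p = 0.113 to 0.15), and Itga4 with 3x under 6 settings (adjusted p = 0.105 to 0.158: total-count and DESeq2 scaling, no CPM filter, all gene types and both limma fits). Itgal with 3x (0.12, 0.232) was called with all gene types (adjusted p = 0.0931). The calls of Itgae, Itgb7 and Cd44 with WT IL-2, of Itga4 and Icam1 with H16R and of Itgb1 and Icam1 with 3x held in all 16 fits without 1 library.

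**Figure D3:**
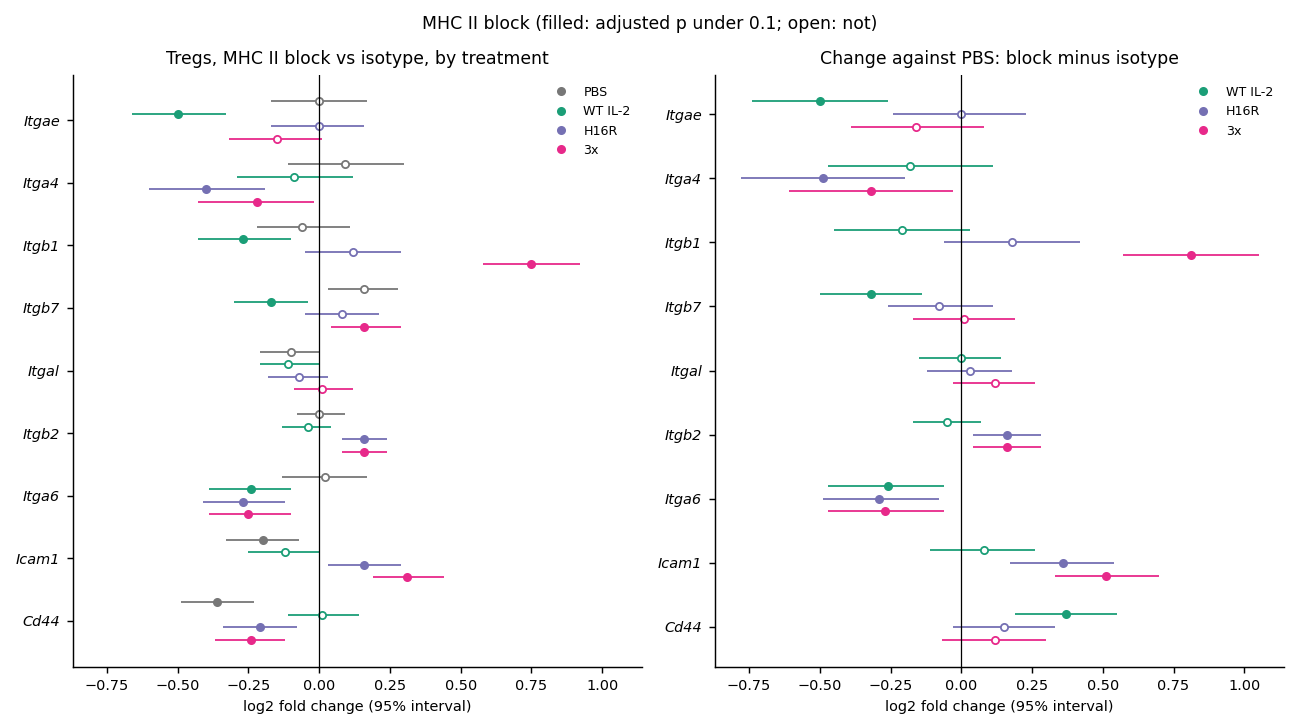
Log2 difference of MHC II blockade against isotype (axis) with its 95% interval for each gene in Tregs, by injection; filled points passed adjusted p under 0.1. Itgb1 with 3x stands at 0.75 and Itgae with WT IL-2 at -0.50.

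Because the chains work in pairs, the ratio of α to β chain in FPKM is given as a description, without a test. Itgae to Itgb7 was 0.0976 ± 0.0132 in isotype PBS Tregs (SD, n = 4), 0.159 ± 0.00742 in WT IL-2 Tregs, 0.14 ± 0.0117 in H16R Tregs and 0.103 ± 0.0103 in 3x Tregs. With 3x, the αE chain therefore stood to β7 about as it did with PBS, both having risen. Under blockade the ratio was 0.0873 ± 0.00515, 0.126 ± 0.00661, 0.133 ± 0.0146 and 0.0834 ± 0.0173 in the same order. The ratio of Itga4 to Itgb1 was 0.78 ± 0.0372 in blockade PBS Tregs, 0.659 ± 0.0587 in WT IL-2 Tregs, 0.457 ± 0.0698 in H16R Tregs and 0.409 ± 0.0527 in 3x Tregs, and under isotype it was 0.701 ± 0.09 with PBS, lower with WT IL-2 (0.583 ± 0.0665) and H16R (0.648 ± 0.0303) and higher with 3x (0.797 ± 0.0439), each overlapping with PBS. Itgal to Itgb2 went from 1.23 ± 0.0473 with PBS to 0.905 ± 0.0684 with 3x under isotype, and from 1.14 ± 0.0373 to 0.815 ± 0.0321 under blockade. The α chain was thus ahead of the β chain in FPKM with PBS and behind it with 3x. Itga6 to Itgb1 was 0.359 ± 0.0292 in PBS Tregs, 0.225 ± 0.0286 in WT IL-2 Tregs, 0.332 ± 0.0443 in H16R Tregs and 0.402 ± 0.0108 in 3x Tregs under isotype, and 0.378 ± 0.0237, 0.226 ± 0.0148, 0.253 ± 0.0231 and 0.204 ± 0.0323 in the same order under blockade. The 3x groups thus held the highest and the lowest of the 8 means, and both WT IL-2 groups lay near the lowest. Itga4 to Itgb7 was 0.244 ± 0.0546, 0.242 ± 0.0467, 0.209 ± 0.0329 and 0.207 ± 0.0172 with PBS, WT IL-2, H16R and 3x under isotype. Under blockade it was 0.232 ± 0.00594, 0.255 ± 0.0268, 0.151 ± 0.0247 and 0.158 ± 0.0168 in that order. Transcript ratios do not give the amounts of paired protein, which were not measured.

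**Figure D4:**
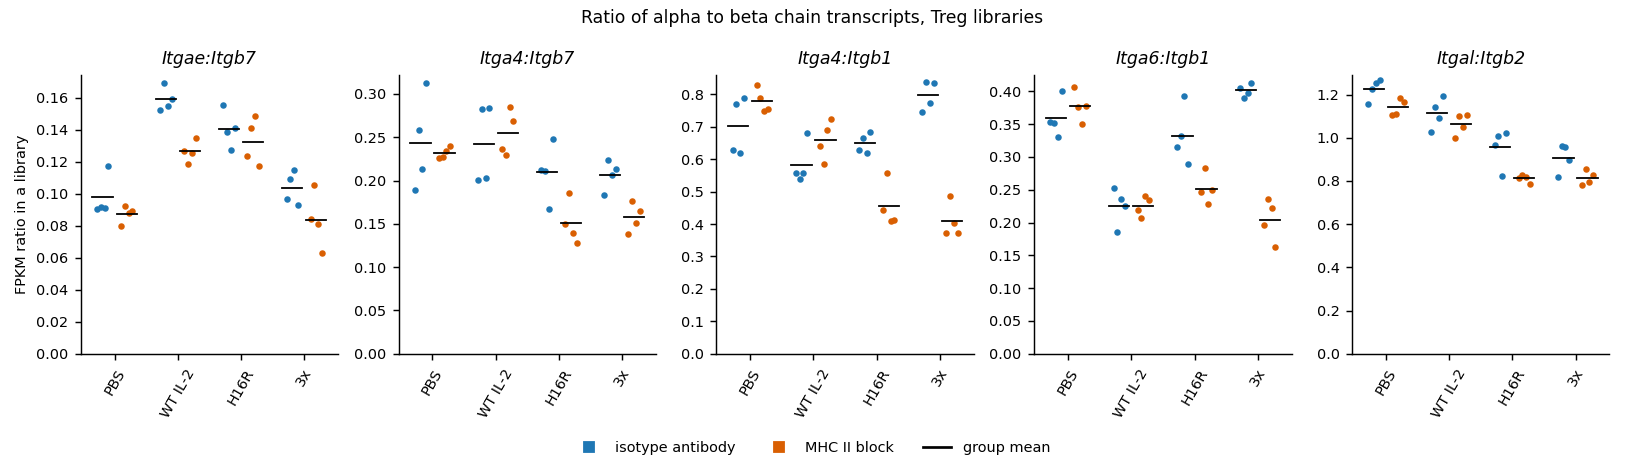
Ratio of α to β chain in FPKM (vertical axis) in every Treg library by group, with the group mean as a bar. The pairs are Itgae to Itgb7, Itga4 to Itgb7, Itga4 to Itgb1, Itga6 to Itgb1 and Itgal to Itgb2. The Itga4 to Itgb1 ratio falls to 0.373 to 0.485 in the blockade 3x group, and its mean with blockade PBS is 0.78.

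Tregs were compared with Tcons of the same mice in a fit with mouse as a block (16 mice with both fractions). Averaged over the 4 injections, 7 of the 9 genes differed (6 higher and 1 lower in Tregs, 80.5% of all 12844 genes tested), and the gap was by far the widest for Itgae, 7.33-fold (log2 2.87 ± 0.09, adjusted p = 5.27e-14). Itga6 (1.67-fold, log2 0.74 ± 0.03), Itgb7 (1.52-fold, 0.60 ± 0.03), Icam1 (1.48-fold, 0.57 ± 0.04) and Itgb2 (1.1-fold, 0.14 ± 0.03) were also higher in Tregs, with adjusted p of at most 0.000188. Itgb1 was lower in Tregs (-0.22 ± 0.07, adjusted p = 0.00768). Itga4 was called higher (0.13 ± 0.06, 0.0478), a call lost without the mouse of blockade PBS replicate 1 or of blockade 3x replicate 2 (adjusted p = 0.104 to 0.127), without the block for the mouse (0.133) and with total-count scaling, where it was 0.06 (0.366). Itgal (-0.03 ± 0.04, 95% interval -0.11 to 0.05) and Cd44 (0.00 ± 0.02, 95% interval -0.05 to 0.05) did not pass the test. With total-count scaling these were called lower in Tregs, at -0.10 (adjusted p = 0.0133) and -0.07 (0.00702), and Itgb2 was at 0.06, still called.

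In PBS mice alone 8 genes differed (6 higher, 2 lower, 50.4% of all genes). Itgae was 6.82 times as high in Tregs (log2 2.77 ± 0.18, adjusted p = 5.18e-09), while Itgb1 was lower (log2 -0.73 ± 0.14, 0.0005) and so was Itga4 (-0.33 ± 0.11, 0.0266). Without the mouse of isotype PBS replicate 1, Itga4 was at -0.21 and not called (adjusted p = 0.179). Both chains of α4β1 thus began lower in Tregs than in Tcons, though the Itga4 call depended on that mouse. Itgb1 was at 291 to 352 and 312 to 321 CPM in Tregs and 461 to 477 and 539.7 to 610.4 CPM in Tcons (isotype and blockade). The calls of Cd44 (0.14, 0.0187) and Itgb2 (0.11, 0.0896) were lost without 1 mouse: Cd44 without that of isotype PBS replicate 2 (adjusted p = 0.105) and Itgb2 in 6 of 16 fits (adjusted p = 0.104 to 0.173, without isotype or blockade PBS replicate 1 or 2 or H16R replicate 1 of either arm). Itgb2 was also lost with total-count scaling and without the CPM filter (adjusted p = 0.125 to 0.156).

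The fractions differed in markers of other cells too. In isotype PBS mice the B cell markers summed to 124 to 673 CPM in Tregs and 867 to 992 CPM in Tcons, the neutrophil markers to 3.00 to 27.5 and 53.3 to 54.1 CPM, and the NK cell markers to 28.2 to 45.3 and 86.2 to 93.4 CPM. In blockade PBS mice the same sums were 68.1 to 149 and 150.2 to 157 CPM, 0.947 to 8.55 and 159.8 to 179 CPM, and 26.4 to 36.6 and 56.8 to 64.4 CPM. In each of the 8 combinations of antibody and injection, the neutrophil, NK cell, dendritic cell, platelet and stroma and endothelium sums of all Treg libraries lay below those of the Tcon libraries. The platelet sums were 0 to 0.164 CPM in Tregs and 3.25 to 3.44 CPM in Tcons of isotype PBS mice. Plasma cell markers went the other way in these mice (1637 to 1945 CPM in Tregs, 858 to 1232 CPM in Tcons) and overlapped in blockade PBS mice (686 to 2029 and 732 to 1101 CPM). The part of other cells in the differences between Tregs and Tcons was not tested.

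The gap between the cell types changed with IL-2 for 5 genes, as the mean of the 3 molecules minus PBS (4 higher, 1 lower, 44.3% of all genes). The gap shifted toward Tregs for Itgb1 (0.67 ± 0.16, adjusted p = 0.00499), Itga4 (0.61 ± 0.13, 0.00256), Itgb7 (0.45 ± 0.08, 0.000692) and Itga6 (0.24 ± 0.06, 0.00637), and toward Tcons for Cd44 (-0.19 ± 0.05, 0.0125). Each value averages both antibody arms, which were not tested apart. In the order PBS, WT IL-2, H16R and 3x, group means of Itgb1 under isotype were 329, 576, 521 and 420.5 CPM in Tregs. In isotype Tcons they were 469, 849, 551 and 481 CPM. Under blockade they were 317, 474, 571 and 720.1 CPM in Tregs and 575, 522, 606 and 459.7 CPM in Tcons. For Itgae the shift, averaged over both arms, did not pass the test (0.14 ± 0.20, 95% interval -0.28 to 0.55). Its means under isotype, in the same order, were 93.5, 222, 229 and 169 CPM in Tregs and 15.0, 38.2, 42.4 and 25.8 CPM in Tcons. Under blockade they were 93.6, 156, 230.3 and 154 CPM in Tregs and 12.4, 17.3, 22.2 and 18.6 CPM in Tcons. The 5 calls above held in each of 16 fits without 1 mouse, and Itgal (-0.16, 0.142) joined them without that of blockade PBS replicate 1 or blockade 3x replicate 1 or 2 (adjusted p = 0.0656 to 0.0886), with total-count scaling and in DESeq2 (adjusted p = 0.0394 to 0.0877).

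**Figure D5:**
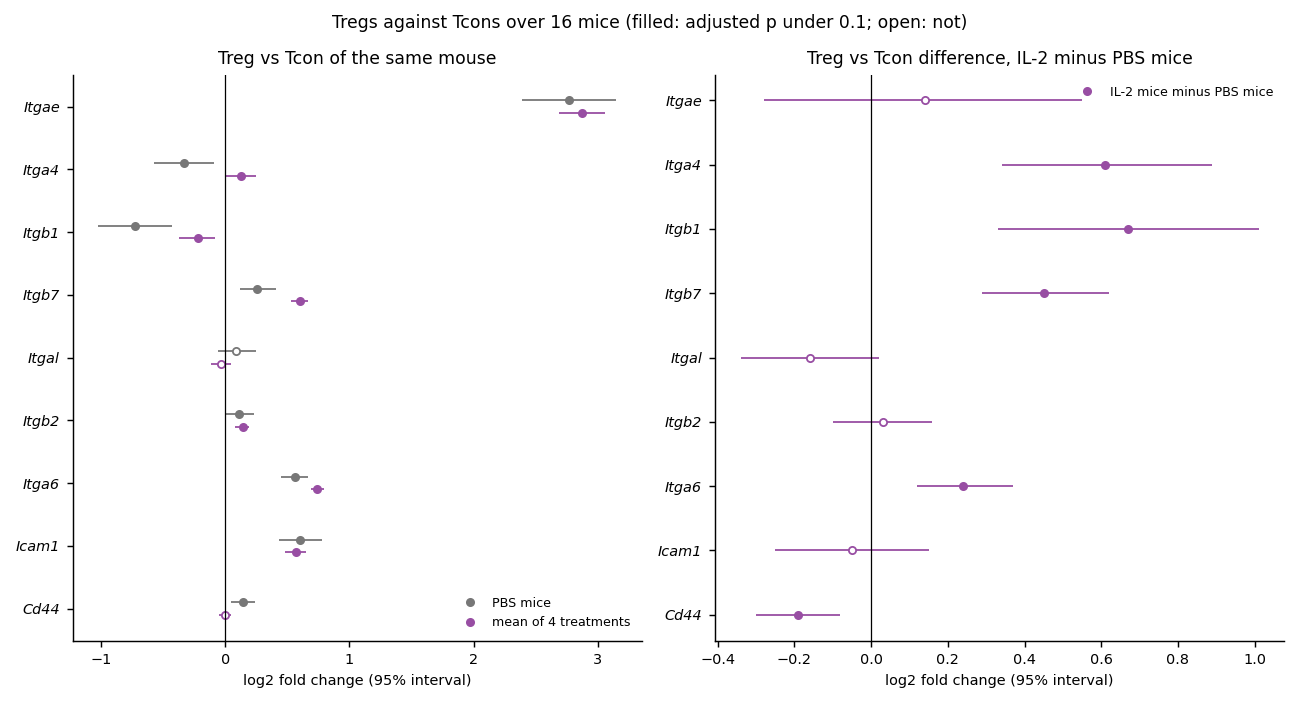
Log2 difference of Tregs against Tcons of the same mice (axis) with its 95% interval for each gene: the mean of the 4 injections, PBS mice alone, and the mean of the IL-2 molecules minus PBS; filled points passed adjusted p under 0.1. Itgae stands at 2.87 over the 4 injections, and Itgb1 at -0.73 in PBS mice.

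Within Tcons, both antibody arms were fitted together with the antibody as a term (4 libraries per injection; 12526 genes tested). Itgae rose with each molecule there too. Its levels under isotype were 14.1 and 15.8 CPM with PBS, 35.5 and 40.8 CPM with WT IL-2, 39.7 and 45.2 CPM with H16R and 28.2 and 23.5 CPM with 3x. Under blockade they were 11.6 and 13.2 CPM, 18.2 and 16.3 CPM, 22.2 and 22.2 CPM and 16.7 and 20.4 CPM in the same order. Each IL-2 pair lay above the PBS pair of its arm. The log2 fold changes were 0.92 ± 0.16 with WT IL-2 (adjusted p = 0.0033), 1.16 ± 0.16 with H16R (0.000602) and 0.67 ± 0.16 with 3x (0.0289; 0.104 without blockade 3x replicate 2). Foxp3 in the same Tcon libraries was at 53.3 to 59.0 CPM with PBS, 98.2 to 183 CPM with WT IL-2, 130.4 to 135 CPM with H16R and 91.0 to 111 CPM with 3x under isotype. Under blockade it was at 68.0 to 76.7, 46.8 to 67.9, 84.6 to 95.2 and 93.8 to 95.3 CPM, and its part in the Itgae values was not tested.

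Called in Tcons were 4 of the 9 genes with WT IL-2 (3 higher, 1 lower, 27.2% of all genes), 3 with H16R (all higher, 31.1%) and 2 with 3x (both higher, 9.88%). Cd44 rose with WT IL-2 (0.33 ± 0.07, adjusted p = 0.00826) and H16R (0.27 ± 0.07, 0.0147), and Icam1 with WT IL-2 (0.52 ± 0.12, 0.0136). Icam1 was at 69.2 and 59.3 CPM with PBS and 67.7 and 84.9 CPM with WT IL-2 under isotype, where the pairs overlapped. Under blockade it was at 46.6 and 43.5 CPM with PBS and 83.6 and 76.0 CPM with WT IL-2, and the pairs did not overlap. Markers of other cells moved with the injections in the same libraries. The monocyte and macrophage markers, none at 0, summed to 27.1 to 27.2 CPM with PBS, 269.7 to 436 CPM with WT IL-2, 83.0 to 93.1 CPM with H16R and 133 to 134 CPM with 3x under blockade, against 85.2 to 89.0, 35.1 to 46.6, 19.7 to 20.4 and 25.1 to 42.2 CPM under isotype. The neutrophil markers summed to 53.3 to 54.1 CPM with PBS, 151 to 265 CPM with WT IL-2, 143 to 163 CPM with H16R and 49.3 to 57.0 CPM with 3x under isotype, and to 159.8 to 179, 739 to 968, 408 to 481 and 447 to 615 CPM under blockade. They were thus higher than with PBS in the WT IL-2 and H16R groups of both arms. The 4 erythroid markers summed to 4.96 to 8.71, 13.7 to 220.4, 41.2 to 50.5 and 2.64 to 4.32 CPM in that order under isotype, and to 2.94 to 5.95, 25.6 to 132, 19.2 to 39.3 and 10.5 to 30.4 CPM under blockade. The B cell markers summed to 867 to 992 CPM with isotype PBS and 153 to 448 CPM in the isotype IL-2 groups, whereas under blockade they went the other way with WT IL-2 and H16R, from 150.2 to 157 CPM with PBS to 264 to 329.8 and 158 to 278 CPM, and were at 136 to 167 CPM with 3x. The dendritic cell markers likewise summed to 52.1 to 66.3 CPM with PBS and 21.7 to 35.7 CPM with IL-2 under isotype, and to 22.8 to 25.5 and 48.7 to 86.9 CPM under blockade. The plasma cell markers were higher with WT IL-2 and H16R in both arms, at 858 to 1232 CPM with PBS, 1372 to 2652 CPM with WT IL-2, 1620.1 to 1798 CPM with H16R and 356 to 458 CPM with 3x under isotype, and at 732 to 1101, 2340.5 to 2477, 1656 to 1664 and 801 to 1183 CPM under blockade. The NK cell markers went from 86.2 to 93.4 CPM with PBS to 87.6 to 129 CPM with IL-2 under isotype, and from 56.8 to 64.4 to 106 to 169.9 CPM under blockade. The CD8 T cell markers were at 17.8 to 25.4 CPM with PBS and 10.9 to 23.7 CPM with IL-2 under isotype, and at 6.76 to 7.37 and 16.0 to 73.1 CPM under blockade. The T cell markers were at 1345 to 1435 CPM with PBS and 1381 to 1951 CPM with IL-2 under isotype, and at 1900.3 to 1929 and 1205 to 1562 CPM under blockade. The platelet markers were at 3.25 to 3.44 CPM with PBS and 1.69 to 9.26 CPM with IL-2 under isotype, and at 2.25 to 2.48 and 3.06 to 9.52 CPM under blockade, and the stroma and endothelium markers at 6.32 to 8.01, 2.93 to 15.5, 9.63 to 12.8 and 8.29 to 13.9 CPM in the same order. Without both blockade WT IL-2 libraries, a fit chosen after seeing the data, the WT IL-2 values were 0.40 for Icam1 (adjusted p = 0.158), 0.20 for Cd44 (0.142) and -0.10 for Itga6 (0.398), none of them called, and 1.18 for Itgae (0.00782). Itgae was the only one of the 9 called for WT IL-2 in that fit. The part of other cells in these values was not tested. The Icam1 call with H16R (0.34, 0.0637) was lost in 6 of 8 fits without 1 library (adjusted p = 0.104 to 0.18; kept without isotype PBS replicate 1 or blockade H16R replicate 2). Itga6 was called lower with WT IL-2 (-0.16 ± 0.06, 0.0807), which 5 of 8 such fits did not keep (adjusted p = 0.108 to 0.223, without isotype WT IL-2 replicate 1 or any blockade PBS or WT IL-2 library; 0.119 without the CPM filter), and higher with 3x (0.25 ± 0.06, 0.0283; 0.101 without isotype PBS replicate 1). Itga4 and Itgb1 were at 589 and 1205 CPM and 524 and 1175 CPM in the 2 isotype WT IL-2 Tcon libraries, the higher value of each in replicate 2, which carried the raised Treg markers. With it, Itga4 gave -0.02 ± 0.18 with WT IL-2 (adjusted p = 0.96), and without it -0.29 (adjusted p = 0.0477). Itgb1 gave 0.38 ± 0.22 with it (adjusted p = 0.238) and -0.01 without it (0.947), and its difference between blockade and isotype went from -0.08 (0.725) to 0.10 (0.279). As an average over the injections, blockade lowered 2 genes in Tcons (28.9% of all genes), Itgae by -0.71 ± 0.11 (adjusted p = 0.00301) and Cd44 by -0.21 ± 0.05 (0.0156) on the log2 scale. Group means of Itgae under isotype and blockade were 15.0 and 12.4 CPM with PBS and 38.2 and 17.3 CPM with WT IL-2. They were 42.4 and 22.2 CPM with H16R and 25.8 and 18.6 CPM with 3x. For Cd44 they were 168 and 150, 203 and 195, 215 and 171, and 179 and 147 CPM in the same order. The effect within a single injection was not tested in Tcons. The 5 Treg markers in these Tcon libraries were also lower under blockade in each IL-2 group. They summed to 575 to 1419 CPM under isotype and 332 to 437 CPM under blockade with WT IL-2, 705 to 712 and 524 to 529 CPM with H16R, and 489 to 639 and 434 to 446 CPM with 3x, but to 429.5 to 489 and 536 to 557 CPM with PBS. Their part in the Itgae and Cd44 values was not tested. Itga4 (-0.23, 0.193) was called lower only without isotype WT IL-2 replicate 1 (adjusted p = 0.0666) and Itga6 (-0.08, 0.165) only without isotype PBS replicate 1 (adjusted p = 0.0723).

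Among other genes of adhesion, 4 lists of 74 genes were counted. The shares of all genes called against PBS, 52.2% (WT IL-2), 64.2% (H16R) and 63.6% (3x) under isotype and 35.6%, 66.5% and 73% under blockade, stand beside the share of each list. Of 25 tested genes for integrin activation and linkage to the cytoskeleton, 13 rose and 2 fell with WT IL-2 under isotype, 19 rose and 1 fell with H16R, and 19 rose and 2 fell with 3x; under blockade these counts were 8 and 2, 20 and 2, and 17 and 4. The share of the list called was 60.0%, 80.0% and 84.0% under isotype and 40.0%, 88.0% and 84.0% under blockade. The list's median log2 fold change was 0.14, 0.34 and 0.31 under isotype and 0.09, 0.28 and 0.22 under blockade, against -0.01, -0.01 and -0.01 and 0.02, -0.02 and -0.04 for all genes. With blockade WT IL-2 the number that rose was 5 without PBS replicate 3 or 4 or WT IL-2 replicate 1 or 2 and 6 without PBS replicate 2. The counts of genes that fell, at most 4 in any of these comparisons against PBS, went as low as 0 without 1 library. Rap1b, a small GTPase that switches integrins on, was at 266 to 342 CPM with isotype PBS and 421 to 484 CPM with isotype 3x (log2 0.62 ± 0.07, adjusted p = 5.24e-08), and reached 469 to 582 CPM with blockade 3x (1.01 ± 0.07). Rasgrp2, the exchange factor that loads Rap1, rose with H16R (0.60 ± 0.08, adjusted p = 5.19e-07) and 3x (0.76 ± 0.08, 1.02e-08) under isotype. Cd47, which associates with integrins on the membrane, rose with 3x by 0.67 ± 0.06 under isotype and 1.04 ± 0.06 under blockade. Vcl, encoding vinculin of integrin contacts, was higher with blockade than with isotype in 3x Tregs (1.01 ± 0.14, adjusted p = 2.42e-06). The genes of this list that fell are counted above without being named.

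Of 16 tested other integrin subunits, 7 rose with each molecule under isotype, while 5 fell with either WT IL-2 or H16R and 4 fell in the 3x group; under blockade 10 rose and 1 fell with WT IL-2, 8 rose and 3 fell with H16R, and 10 rose and 5 fell with 3x. The share called was 75.0%, 75.0% and 68.8% under isotype and 68.8%, 68.8% and 93.8% under blockade. The medians were 0.26, 0.13 and 0.07 under isotype and 0.84, 0.43 and 0.59 under blockade, on the log2 scale, beside the medians of all genes given above. The value of 0.84, with blockade WT IL-2, rested in part on replicate 1, the library with 453 CPM of monocyte and macrophage, 619.6 CPM of B cell and 147 CPM of neutrophil markers. Without it 9 of the list rose and 2 fell, with a median of 0.49 (a fit chosen after seeing the data). The NK cell markers also stood above PBS in this group, and the part of other cells in the list's values was not tested. Of the 5 genes that fell with isotype WT IL-2, 3 were called without PBS replicate 4 or WT IL-2 replicate 1, and of the 4 with isotype 3x, 2 without 3x replicate 1. Itga2, the collagen-binding α chain that pairs with β1, was at 4.62 to 6.2 CPM with isotype PBS, 11.6 to 17.7 CPM with WT IL-2, 17.8 to 23.5 CPM with H16R and 19.9 to 24.1 CPM with 3x. It rose with each molecule (log2 1.51 ± 0.12, 2.00 ± 0.12 and 2.10 ± 0.12), as did Itga7, a laminin-binding partner of β1 (2.02 ± 0.11, 2.18 ± 0.11 and 1.78 ± 0.11). Itga1, another collagen-binding partner of β1, rose with blockade 3x (2.54 ± 0.21, adjusted p = 1.94e-11) and was higher there than with isotype 3x (2.05 ± 0.20, 5.32e-09). Itgam and Itgax are β2 partners best known from myeloid cells: Itgam was at 2.77 to 4.16 CPM with blockade PBS and 33.5 to 46.9 CPM with blockade 3x (3.53 ± 0.40), while the 6 monocyte and macrophage markers summed to 11.0 to 16.6 and 9.71 to 16.5 CPM in these groups. Itgax was at 8.4 to 19.7 CPM with isotype PBS and 2.71 to 3.97 CPM with isotype 3x (-1.98 ± 0.32), where these markers summed to 12.9 to 80.8 and 5.59 to 7.02 CPM and the 5 dendritic cell markers to 15.0 to 28.1 and 3.88 to 6.33 CPM; the part of such cells was not tested.

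Of 22 tested other adhesion receptors and ligands, 8 rose and 6 fell with WT IL-2, 10 and 6 with H16R, and 9 and 6 with 3x under isotype, and 9 and 4, 9 and 6, and 8 and 8 under blockade. The share called was 63.6%, 72.7% and 68.2% under isotype and 59.1%, 68.2% and 72.7% under blockade, with list medians between -0.05 and 0.15. Spn, the mucin CD43, went from 284 to 331 CPM with isotype PBS to 546 to 669 CPM with 3x (0.95 ± 0.07, adjusted p = 1.22e-11) and to 696 to 852 CPM with blockade 3x. Selplg, the selectin ligand PSGL-1, rose with blockade H16R (0.89 ± 0.07, 3.54e-11), and Alcam, the ligand of CD6, with isotype WT IL-2 (0.91 ± 0.08, 2.2e-10). These named genes all rose, and those of the list that fell are counted above without being named. Vcam1, the ligand of α4β1, was at 0.956 to 182 CPM with blockade WT IL-2, where the highest value belonged to replicate 1 with its 453 CPM of monocyte and macrophage markers, so its fold change is not read here. Of the 4 proteins that link CD44 and like receptors to actin, the numbers that rose under isotype were 2 (WT IL-2), 2 (H16R) and 3 (3x), those under blockade 1, 3 and 4 in the same order, and 0 fell. The share called was 50.0% with WT IL-2 and H16R and 75.0% with 3x under isotype, and 25.0% with WT IL-2, 75.0% with H16R and the whole list with 3x under blockade, beside the shares of all genes given above, with list medians between 0.02 and 0.30. Without blockade WT IL-2 replicate 1, 2 of the 4 rose with WT IL-2 there. Msn, encoding moesin, rose by 0.46 ± 0.04 with isotype 3x and 0.41 ± 0.04 with blockade 3x, while Cd44 itself fell under isotype and did not pass the test under blockade.

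Over the 32 Treg libraries, the tested genes whose log2 CPM followed each member most closely are given with Pearson's r as a description; the libraries share treatments, so they are not 32 independent points. Itgb7 was followed by Rps6ka1 (0.987), S1pr4 (0.985) and Capn2 (0.984), and Itgae by Acsbg1 (0.965), Plxnd1 (0.954) and Apbb1 (0.948). Itgb1 was closest to Prdm1 (0.937), which encodes Blimp-1 and is also high in plasma cells, then Lgalsl (0.931) and Ide (0.930), and Itga4 to Ikzf2 (0.895), the Treg transcription factor Helios. The nearest genes were Tnks1bp1 for Itgal (0.923), Pgs1 for Itgb2 (0.921), Ptpra for Itga6 (0.911), Gla for Cd44 (0.849) and Fam83g for Icam1 (0.830). Among the members themselves, Itgb7 and Itgb1 had r = 0.774, Itgae and Itgb7 0.695, and Itgb7 and Itgal -0.844, while the LFA-1 chains Itgal and Itgb2 had -0.329.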

How the data were processed

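RNA-seq was made from Tregs (32 libraries) and Tcons (16 libraries). Per the study's methods, stranded mRNA libraries were sequenced in paired ends, reads were aligned with OSA in Omicsoft Array Suite to mouse build B38, and genes were quantified by its RSEM; the strand setting of the counting is not given in the sources used here. The authors deposited expected counts per gene (72.6% of the values above 0 were exactly whole, with a tolerance of 0) and, beside them, FPKM values that the authors deposited after scaling by length and total. Their tables of comparisons, holding log2 fold changes, Wald statistics and adjusted p-values from DESeq2 1.30.1, were not used. All columns were matched to samples by their labels (0 unmatched).

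Expected counts were rounded and tested with edgeR 4.0.16 (R 4.3.3; TMM scaling, quasi-likelihood test, Benjamini-Hochberg adjustment over all genes tested, threshold 0.1). Protein-coding genes above 0.5 CPM in at least 4 libraries entered: 12392 genes in Tregs, 12844 in the fit of Tregs and Tcons and 12526 in Tcons. One fit held all 8 Treg groups. Tregs and Tcons of the same mouse, as the labels number them, were tied by a block for the mouse. Tcon comparisons held the antibody or the injection as a term. The scripts were tested on simulated data. Over all 1128 pairs of libraries the smallest chi-square per gene was 3.79, above sampling noise. Alternatives were limma 3.58.1 on log2(FPKM + 1) and log2(FPKM + 0.1), DESeq2 1.42.0, other scalings and filters, and leaving out each library, and, both added after seeing the data, leaving out both Tcon libraries of the blockade WT IL-2 group and recounting the adhesion lists without each library.

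The genes named are the 9 members, the closest 3 genes to each by Pearson's r, and at most 3 genes per comparison from each of 4 adhesion lists: those past the threshold with the largest change at a mean of at least 5 CPM. Members and lists were chosen with earlier results of these data known. Gene positions are from GENCODE on GRCm38; 96.6% of the 53345 gene names were found there. Per the study's methods, the cells of each mouse made a sample of their own; each Tcon library carries the mouse number of a Treg library.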

Additional observations from a re-analysis of the deposited data

Results flagged for a closer look

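In 72 groups of 4 Treg libraries (9 genes in 8 groups), 3 had 1 library far from the others, where chance flags about 1 in 20 groups. Itgae was at 101 CPM in blockade PBS replicate 2, with a gap to the next library of 0.873 of the group's range. Itgb7 was at 1274 CPM (gap 0.979) and Itga6 at 216 CPM (gap 0.903) in isotype H16R replicate 3.

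The response to a molecule differed between MHC II blockade and isotype in 13 tests of the interaction in edgeR, given as log2 fold change under blockade minus isotype. With WT IL-2, where 19.7% of all genes were called, these were Itgae (-0.50, adjusted p = 0.00349), Itgb7 (-0.32, 0.0135), Itga6 (-0.26, 0.082) and Cd44 (0.37, 0.00432). With H16R (19.1% of all genes) they were Itga4 (-0.49, 0.0243), Icam1 (0.36, 0.011), Itga6 (-0.29, 0.0604) and Itgb2 (0.16, 0.0733). With 3x (39% of all genes) they were Itgb1 (0.81, 1.61e-05), Icam1 (0.51, 0.000131), Itgb2 (0.16, 0.0403), Itga6 (-0.27, 0.0451) and Itga4 (-0.32, 0.0859).

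The response to IL-2, as the mean of the 3 molecules minus PBS over both antibody arms, differed between Tregs and Tcons of the same mice for 5 genes, where 44.3% of all genes were called. On the log2 scale these were Itgb1 (0.67, adjusted p = 0.00499), Itga4 (0.61, 0.00256), Itgb7 (0.45, 0.000692), Itga6 (0.24, 0.00637) and Cd44 (-0.19, 0.0125).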

How the results depend on the processing

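Of 4608 log2 fold changes under an alternative, 164 had another sign than the value reported, and 0 of these belonged to a call of the report. In 1 the value was called only with the other sign: Cd44 between Tregs and Tcons over the 4 injections was 0.00 (adjusted p = 0.955) and came to -0.07 (adjusted p = 0.00702) when libraries were scaled by total counts alone. The other 163 were called in neither fit and came from 32 pairs of a gene and a comparison, such as Itgb1 in Tcons with WT IL-2 (0.38, and -0.01 without isotype WT IL-2 replicate 2). Leaving out 1 library (or mouse) at a time left 2228 values on their side of the threshold, lost 124 calls and added 24. Of the 9 genes, the number called in H16R against WT IL-2 under isotype went from 5 to 2 without the CPM filter, to 3 with all gene types and to 3 with a replicate block, and lay between 1 and 5 when 1 library was left out. The interaction with H16R was called for 4 genes and for 2 without the CPM filter (2 to 4 with 1 library left out), and that with 3x for 5 and for 3 (3 to 6). Blockade against isotype with PBS was called for 2 genes (1 to 3 with 1 library left out), and Tcon 3x against PBS for 2 (1 to 2). Leaving out both Tcon libraries of the blockade WT IL-2 group, chosen after seeing the data, took WT IL-2 against PBS in Tcons from 4 genes to 1. The cause was not tested. Total-count scaling also moved the split of all called genes in H16R against PBS under isotype from 3885 higher of 7953 to 3074 higher of 7995. Equal replicate numbers mark different mice of different groups, and same-numbered libraries did not deviate together (mean r = 0.006 over 112 pairs; 9 of 32 libraries were closest to their own number); with the replicate block, 201 values kept their side of the threshold, 4 calls were lost and 2 gained. Without the block for the mouse, 1 of 27 values between Tregs and Tcons lost its call. The fewest counts stood behind Icam1 in Tregs (1697 to 5235) and Itgae in Tcons (451 to 1755).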
